A study of Mus musculus with 16 samples.

Results

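The 34 mouse genes described here encode complement components, complement regulators and complement receptors. They were chosen by name, and a gene was measured through the array probes whose RefSeq accession belongs to it. All 34 had a probe, 42 probes in all, among 55681 probes on the array. Of the 34 genes, 32 passed the filter on dim probes and were tested among 19022 genes. The other two were C9, the last component of the membrane attack complex, and Masp1, a protease of the lectin pathway. The C9 probe was well above background on 2 of the 16 arrays and the Masp1 probe on 1 of the 16.

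Complement is a cascade of plasma and tissue proteins that marks cells, debris and microbes for removal. In the classical pathway C1q binds a surface, the proteases C1r and C1s become active, and they cleave C4 and C2 to form a convertase that cleaves C3. The lectin pathway reaches the same step through mannan-binding lectin proteases, and the alternative pathway amplifies C3 cleavage through factor B, factor D and properdin. Cleaved C3 can lead to cleavage of C5 (the product of Hc in the mouse) and to assembly of a pore from C5b, C6, C7, C8 and C9. Host cells limit these steps with soluble and membrane-bound regulators. The liver makes most complement of the plasma, while within the retina microglia are a known source of C1q and several components are also made by the retinal pigment epithelium (RPE) and glia.

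Expression was measured on 16 single-colour Agilent arrays of whole retina with RPE, 4 in each of 4 groups. The groups were wild-type mice at 1 month, nm3342 mutant mice at 1 month, wild-type mice at 1 year and nm3342 mutant mice at 1 year. All were on the C57Bl/6J background and labelled male, the age given as P30 or P365. The labels tie the mutation to serous retinal detachment, where fluid collects between the neural retina and the RPE, and they do not name the mutated gene. They do not say whether each array is a separate animal, so p-values measure the spread between these samples, which may be technical. The tissue is a mixture, so more cells of a type and more RNA per cell cannot be told apart in any of the values below.

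All levels are log2 intensities relative to the 75th percentile of their array, so a level of 0 is that percentile and a negative level lies below it. Levels of different genes come from different probes and are not compared with each other. The 75th percentile intensity ranged from 603 to 993 over the arrays, and 82.1% to 89.6% of spots were well above background. Rod genes were high on every array (list mean 6.09 to 6.65), as were RPE genes (2.89 to 3.89, 6 of 7 tested, with Best1 under the filter on dim probes). On 3 arrays labelled male, Xist was between -0.38 and -0.03 and the Y-linked gene Ddx3y between -8.47 and -8.13, the pattern of female tissue. On the other 13 arrays Xist was between -8.61 and -5.68 and Ddx3y between 0.69 and 1.19. The 3 arrays are mutant replicates 2 and 3 at 1 month and mutant replicate 1 at 1 year, so the results that rest on them are given with and without them. Each of the 2 slides held 2 arrays of every group, and on the second slide all mutant arrays lay in one row and all wild-type arrays in the other.

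Complement genes, like all tested genes, were called more often between ages than between genotypes. With 1 linear model over all tested genes (limma, Benjamini-Hochberg adjusted p under 0.05), 15 of the 32 genes changed between 1 month and 1 year in wild type, 14 of them higher at 1 year. This is 46.9% of the members, where 12.4% of all tested genes were called (7.28% higher and 5.09% lower). In the mutant 12 of 32 rose with age and none fell (limma; 15 higher and 1 lower at an unadjusted p under 0.05), or 37.5%, where 6.68% of all tested genes were called (3.76% higher and 2.92% lower). The median log2 change with age was 0.34 in wild type and 0.34 in the mutant, against -0.03 and -0.05 over all tested genes. At 1 month 3 of 32 genes were higher in the mutant than in wild type (Cfb, C1qa and C1qc) and none lower (limma; 10 higher and 2 lower at an unadjusted p under 0.05), where 2.67% of all tested genes were called (1.98% higher and 0.689% lower). At 1 year 3 of 32 were higher in the mutant (C4b, Cfi and Clu) and none lower (limma; 6 higher and 2 lower at an unadjusted p under 0.05), where 0.867% of all tested genes were called (0.62% higher and 0.247% lower). The difference between these genotype effects, which equals the age change in the mutant minus that in wild type, was called for Cfi alone, where 0.405% of all tested genes were called. The genotype and age comparisons share arrays, so they are not independent of each other.

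**Figure D1:**
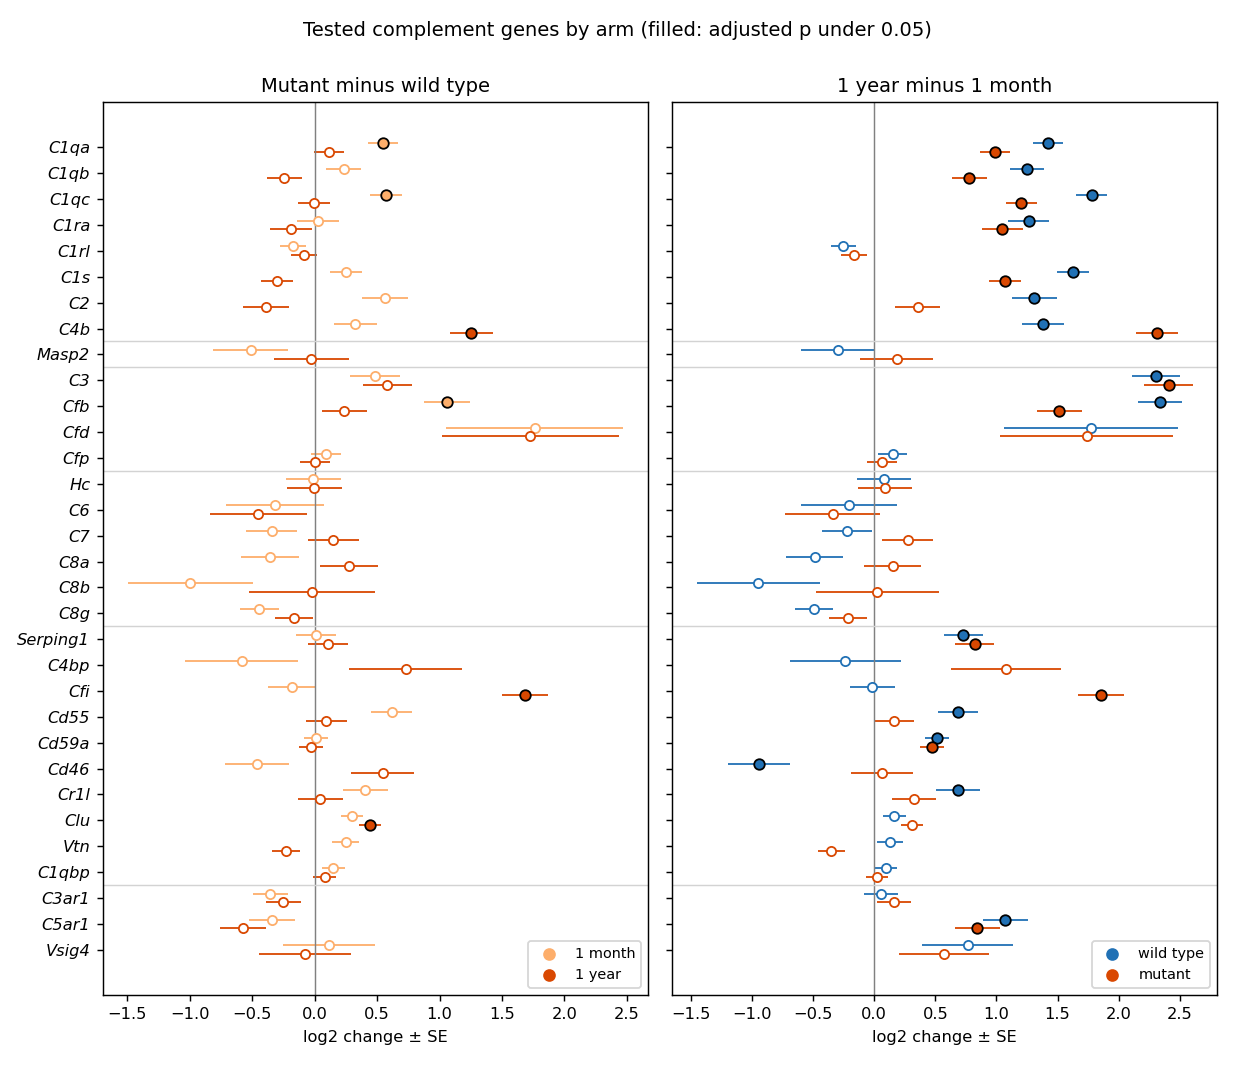
Log2 change with its standard error for each of the 32 tested complement genes, grouped by arm from classical initiation at the top to receptors at the bottom, as mutant minus wild type (left, 1 month and 1 year) and as 1 year minus 1 month (right, wild type and mutant). Filled points passed an adjusted p of 0.05. Most filled points are age changes of classical genes, C3, Cfb and regulators, and none lies among the 6 terminal pathway genes. Over all tested genes 0.867% to 12.4% were called in these comparisons, so no call among 6 genes is near that share.

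As over all tested genes, fewer members had groups that did not overlap in the genotype comparisons than in the age comparisons. All 4 mutant arrays lay above or below all 4 wild-type arrays for 7 of 32 genes at 1 month (5 higher, 2 lower), where 8.51% of all tested genes did so (5.81% higher, 2.7% lower). At 1 year this held for 6 of 32 (4 higher, 2 lower), where it held for 7.85% of all tested genes (4.43% higher, 3.42% lower). All 4 arrays at 1 year lay apart from the 4 at 1 month for 18 of 32 genes in wild type (15 higher, 3 lower), against 18.9% of all tested genes (9.13% higher, 9.74% lower). In the mutant they did for 14 of 32 genes, all higher, against 13.8% (7.4% higher, 6.4% lower). Of the 15 genes called with age in wild type and the 12 called in the mutant, 11 were the same genes, or 73.3% of the wild-type calls and 91.7% of the mutant calls. These 2 age comparisons share no array, but they share the slides and the estimate of the spread. The same overlap was not counted over all tested genes, so it is not shown to be particular to complement.

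The 3 chains of C1q, the recognition molecule of the classical pathway, rose with age in both genotypes. C1qa levels in wild type were -1.16, -0.89, -0.99 and -1.01 at 1 month and 0.78, 0.08, 0.38 and 0.41 at 1 year. C1qa levels in the mutant were -0.39, -0.62, -0.40 and -0.45 at 1 month and 0.66, 0.43, 0.46 and 0.56 at 1 year. Every array at 1 year lay above every array at 1 month, and at 1 month every mutant array lay above every wild-type array. The rise with age was 1.42 ± 0.12 in wild type (log2 change ± SE, 2.68-fold, adjusted p = 2.9e-06) and 0.99 ± 0.12 in the mutant (1.99-fold, adjusted p = 0.000164). At 1 month C1qa was 0.55 ± 0.12 higher in the mutant (1.46-fold, adjusted p = 0.0282), and 0.49 and 0.60 higher on the separate slides. At 1 year the genotypes overlapped, with a difference of 0.11 (95% interval -0.15 to 0.38).

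C1qc, the C chain, was also called with age in each genotype and between genotypes at 1 month. C1qc levels in wild type were -0.56, -0.21, -0.37 and -0.34 at 1 month and 1.69, 1.14, 1.47 and 1.34 at 1 year. C1qc levels in the mutant were 0.41, 0.08, 0.07 and 0.25 at 1 month and 1.48, 1.23, 1.30 and 1.61 at 1 year. The mutant arrays at 1 month lay between the wild-type arrays of the 2 ages without overlap, and at 1 year the genotypes overlapped. The rise with age was 1.78 ± 0.13 in wild type (3.44-fold, adjusted p = 6.9e-07) and 1.20 ± 0.13 in the mutant (2.30-fold, adjusted p = 4.87e-05). At 1 month C1qc was 0.57 ± 0.13 higher in the mutant (1.49-fold, adjusted p = 0.0273), and 0.55 and 0.60 higher on the separate slides. At 1 year the difference was -0.00 (95% interval -0.28 to 0.27).

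C1qb, the B chain, rose with age, and its genotypes were not told apart. C1qb levels in wild type were -1.07, -0.91, -1.01 and -0.99 at 1 month and 0.58, -0.04, 0.32 and 0.16 at 1 year. C1qb levels in the mutant were -0.55, -0.76, -0.94 and -0.80 at 1 month and 0.20, -0.18, -0.24 and 0.28 at 1 year. The ages lay apart in each genotype, while mutant replicate 3 at 1 month fell within the wild-type range. The rise was 1.25 ± 0.14 in wild type (2.38-fold, adjusted p = 4.09e-05) and 0.78 ± 0.14 in the mutant (1.71-fold, adjusted p = 0.00372). At 1 month the difference between genotypes was 0.23 ± 0.14 (adjusted p = 0.472).

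The calls of C1qa and C1qc at 1 month were close to the threshold. Without the 3 arrays of female pattern, C1qa was 0.59 higher (adjusted p = 0.152) and C1qc 0.70 higher (adjusted p = 0.0932). With 1 array left out at a time, C1qa stayed between 0.50 and 0.60 higher and lost its call without mutant replicate 1 or 3 or wild-type replicate 1, 3 or 4, with an adjusted p of up to 0.0959. C1qc stayed between 0.51 and 0.63 higher and lost its call without mutant replicate 1 or wild-type replicate 1 or 3, with an adjusted p of up to 0.101. Markers of microglia, the cells known to make C1q in the retina, were also higher there. The mean level of 11 microglia and macrophage genes ranged from -0.67 to -0.52 in wild type and from -0.15 to 0.01 in the mutant at 1 month, and from 0.23 to 0.70 and 0.52 to 0.66 at 1 year. Of these 11 genes 4 were called higher in the mutant at 1 month (Aif1, Csf1r, Adgre1 and Laptm5), 3 without the arrays of female pattern, and their part in the C1q values was not tested.

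C1r and C1s, the proteases that C1q activates, rose with age. C1ra levels in wild type were -0.23, 0.21, 0.06 and 0.44 at 1 month and 1.55, 1.14, 1.12 and 1.72 at 1 year. C1ra levels in the mutant were 0.32, -0.02, 0.06 and 0.22 at 1 month and 1.33, 1.14, 0.90 and 1.41 at 1 year. The ages lay apart and the genotypes overlapped at each age. C1ra rose by 1.26 ± 0.17 in wild type (2.40-fold, adjusted p = 0.00017) and by 1.05 ± 0.17 in the mutant (2.07-fold, adjusted p = 0.00146). A second C1ra probe gave 1.24 and 1.03.

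C1s levels in wild type were -0.28, 0.09, -0.02 and -0.13 at 1 month and 1.69, 1.33, 1.42 and 1.70 at 1 year. C1s levels in the mutant were 0.23, -0.01, 0.03 and 0.41 at 1 month and 1.4, 1.27, 0.93 and 1.34 at 1 year. As for C1ra, age separated the arrays and genotype did not. C1s rose by 1.62 ± 0.13 in wild type (3.08-fold, adjusted p = 1.94e-06) and by 1.07 ± 0.13 in the mutant (2.10-fold, adjusted p = 0.00016), and the difference between these rises was -0.55 ± 0.19 (adjusted p = 0.245). RefSeq now names this gene C1s1. Its near-identical neighbour C1s2 rose by 1.68 and 1.06, and cross-hybridisation between the copies makes the split between them uncertain.

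C1rl, which encodes a C1r-like protease, went the other way without passing the test. C1rl levels in wild type were 1.12, 1.1, 0.81 and 1.03 at 1 month and 0.79, 0.71, 0.66 and 0.88 at 1 year. C1rl levels in the mutant were 0.79, 0.85, 0.83 and 0.88 at 1 month and 0.97, 0.50, 0.52 and 0.70 at 1 year. The change with age was -0.25 ± 0.10 in wild type (adjusted p = 0.133) and -0.16 in the mutant (adjusted p = 0.392). It was the single gene of the 8 in the classical arm that was called in no comparison. With age 7 of the 8 were called in wild type and 6 in the mutant, where 12.4% and 6.68% of all tested genes were called. By genotype 2 were called at 1 month and 1 at 1 year, where 2.67% and 0.867% of all tested genes were called.

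C4 and C2 supply the classical C3 convertase, and C4b was the classical gene that differed by genotype at 1 year. C4b levels in wild type were 0.98, 1.39, 1.53 and 1.16 at 1 month and 2.81, 2.36, 2.71 and 2.70 at 1 year. C4b levels in the mutant were 1.49, 1.41, 1.38 and 2.07 at 1 month and 4.07, 3.57, 4.05 and 3.92 at 1 year. The 4 mutant arrays at 1 year lay above all other arrays, and at 1 month the genotypes overlapped. C4b was 1.26 ± 0.17 higher in the mutant at 1 year (2.39-fold, adjusted p = 0.00214), and 1.27 and 1.24 higher on the separate slides. Without the 3 arrays of female pattern it was 1.20 higher (adjusted p = 0.0179). It rose with age by 1.38 ± 0.17 in wild type (2.60-fold, adjusted p = 0.000103) and by 2.31 ± 0.17 in the mutant (4.96-fold, adjusted p = 2.48e-06). The difference between these rises was 0.93 ± 0.24 and was not called (adjusted p = 0.123), but without mutant replicate 4 at 1 month, the array at 2.07, it was 1.09 (adjusted p = 0.0332). C4a, the near-identical copy of C4b, had no probe matched here, so the C4b signal may hold both.

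C2 levels in wild type were 0.70, 1.01, 1.26 and 1.33 at 1 month and 2.38, 2.12, 2.47 and 2.57 at 1 year. C2 levels in the mutant were 1.87, 1.22, 1.49 and 1.97 at 1 month and 2.09, 1.82, 1.76 and 2.30 at 1 year. In wild type the ages lay apart, while in the mutant they overlapped. C2 rose by 1.31 ± 0.18 in wild type (2.48-fold, adjusted p = 0.000296), and its change in the mutant was 0.36 ± 0.18 (adjusted p = 0.293). The test of that difference gave -0.95 ± 0.26 (adjusted p = 0.145), so the genotypes were not shown to differ in their age change. At 1 month the mutant minus wild-type difference was 0.56 ± 0.18 (adjusted p = 0.147).

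**Figure D2:**
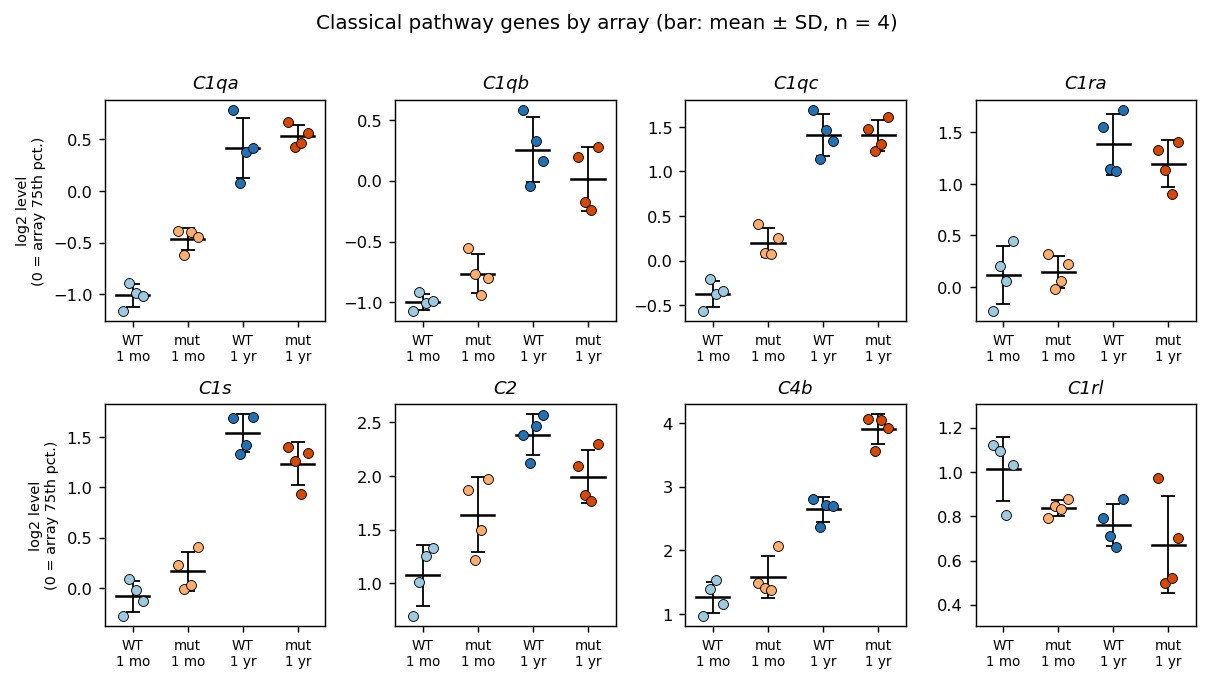
Level of the 8 classical pathway genes on each array (log2 relative to the array's 75th percentile), with bars for the mean ± SD of the 4 arrays of each group. C1qa, C1qc and C4b show genotype differences that passed the test, at 1 month for the first pair and at 1 year for C4b, and C1rl is the gene with no called change.

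The sequence at the start of the gene was searched for short patterns in the members that had one at hand. C1qa, C2, C4b, Cfb, Cfi, Serping1 and Clu, each called in a comparison, had none, so the search does not cover them. RefSeq promoter windows of 300 bases, 250 before and 50 after the start, were at hand on GRCm38.p6 for 26 members (28 windows, since C1s and C8g have 2 starts each). They were searched on both strands for GAAA followed by any 2 letters and GAAA again, a pattern of interferon-stimulated response elements (TTTC, any 2 letters and TTTC on the other strand), and for TTCNNNGAA, the core bound by STAT proteins, which reads the same on both strands. The first was in 3 of the 28 windows (Cd59a, Cd46 and Vtn) and in 3.44% of 32841 promoters, and the second in 5 of 28 and in 8.3% of all promoters. Of the 11 windows of 10 genes called in some comparison, 2 held the first and 1 held the second. The windows are printed for C1qb and C1qc, which lie side by side and rose together, for C3, and for C1ra and Cd59a, whose matches are in capitals. They lie at chr4:136886151-136886450 (C1qb, minus strand), chr4:136892865-136893164 (C1qc, minus strand), chr17:57228087-57228386 (C3, minus strand), chr6:124512371-124512670 (C1ra, plus strand) and chr2:104095551-104095850 (Cd59a, plus strand). The C1ra match begins at position 33 after the start (TTCNNNGAA) and the Cd59a match at position -187 (the GAAA pattern).
C1qb: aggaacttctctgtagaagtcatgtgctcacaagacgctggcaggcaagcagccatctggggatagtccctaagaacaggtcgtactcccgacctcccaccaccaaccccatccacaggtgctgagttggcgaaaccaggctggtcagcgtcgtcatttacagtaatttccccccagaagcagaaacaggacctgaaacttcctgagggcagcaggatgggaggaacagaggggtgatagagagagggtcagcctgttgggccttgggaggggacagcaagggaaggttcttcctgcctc
C1qc: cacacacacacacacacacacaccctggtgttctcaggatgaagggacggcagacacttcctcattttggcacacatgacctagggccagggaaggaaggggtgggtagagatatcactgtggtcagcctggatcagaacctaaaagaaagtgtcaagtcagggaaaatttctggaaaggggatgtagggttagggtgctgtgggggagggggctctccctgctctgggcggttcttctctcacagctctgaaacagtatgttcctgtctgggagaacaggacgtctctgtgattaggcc
C3: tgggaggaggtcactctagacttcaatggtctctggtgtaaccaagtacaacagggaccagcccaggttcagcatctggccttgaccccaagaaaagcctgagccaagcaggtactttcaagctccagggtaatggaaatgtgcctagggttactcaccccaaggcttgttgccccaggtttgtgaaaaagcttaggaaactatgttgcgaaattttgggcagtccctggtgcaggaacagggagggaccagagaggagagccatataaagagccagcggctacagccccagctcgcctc
C1ra: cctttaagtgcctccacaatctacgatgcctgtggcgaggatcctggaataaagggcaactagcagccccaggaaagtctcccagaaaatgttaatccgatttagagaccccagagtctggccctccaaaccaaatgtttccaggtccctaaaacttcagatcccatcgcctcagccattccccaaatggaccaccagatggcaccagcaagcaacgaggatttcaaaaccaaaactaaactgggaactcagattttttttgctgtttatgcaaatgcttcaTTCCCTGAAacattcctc
Cd59a: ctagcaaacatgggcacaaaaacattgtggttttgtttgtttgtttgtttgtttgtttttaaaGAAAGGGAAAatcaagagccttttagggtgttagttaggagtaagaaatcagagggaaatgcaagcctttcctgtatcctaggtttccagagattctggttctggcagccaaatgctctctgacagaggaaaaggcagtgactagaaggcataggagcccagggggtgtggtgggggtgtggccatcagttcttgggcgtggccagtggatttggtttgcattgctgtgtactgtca
A match is a run of letters and not a shown binding site. C1qb, C1qc and C3, which rose with age in both genotypes, held neither pattern in these windows.

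In the lectin arm 1 of 2 genes was tested and it was not called. Masp2 encodes the protease that cleaves C4 and C2 after lectins bind. Masp2 levels in wild type were -2.19, -2.98, -2.98 and -3.30 at 1 month and -3.64, -2.63, -3.31 and -3.06 at 1 year. Masp2 levels in the mutant were -3.85, -3.72, -3.36 and -2.56 at 1 month and -3.62, -3.10, -3.11 and -2.93 at 1 year. The groups overlapped in every comparison, and the mutant minus wild-type difference was -0.51 at 1 month (95% interval -1.15 to 0.13) and -0.03 at 1 year (-0.67 to 0.61). Its 2 dimmer probes were not called either.

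C3, the component at which all pathways meet, rose about as much with age in each genotype. C3 levels in wild type were -1.24, -0.60, -0.82 and -0.80 at 1 month and 1.83, 1.22, 1.5 and 1.22 at 1 year. C3 levels in the mutant were -0.55, -0.60, -0.53 and 0.16 at 1 month and 1.79, 1.92, 2.37 and 2.02 at 1 year. The ages lay apart by more than 1 log2 unit in each genotype. C3 rose by 2.31 ± 0.20 in wild type (4.95-fold, adjusted p = 2.9e-06) and by 2.41 ± 0.20 in the mutant (5.30-fold, adjusted p = 5e-06), a difference of 0.10 (95% interval -0.50 to 0.70). A second C3 probe gave 1.30 and 1.52, smaller rises on the log2 scale and also called. Mutant minus wild-type differences were 0.48 ± 0.20 at 1 month (adjusted p = 0.255) and 0.58 ± 0.20 at 1 year (adjusted p = 0.23), and the groups overlapped at both ages.

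Cfb encodes factor B, the protease subunit of the alternative C3 convertase, and it was the member with the firmest genotype difference at 1 month. Cfb levels in wild type were -3.25, -3.10, -3.56 and -3.34 at 1 month and -0.96, -1.25, -0.89 and -0.81 at 1 year. Cfb levels in the mutant were -1.84, -2.28, -2.65 and -2.25 at 1 month and -1.14, -0.77, -0.75 and -0.31 at 1 year. At 1 month every mutant array lay above every wild-type array, and at 1 year the genotypes overlapped. The difference at 1 month was 1.06 ± 0.18 (2.09-fold, adjusted p = 0.00727), 0.91 and 1.21 on the separate slides, and 1.27 without the arrays of female pattern (adjusted p = 0.014). At 1 year it was 0.24 ± 0.18 (adjusted p = 0.699), and the test of the change between ages gave -0.82 ± 0.26 (adjusted p = 0.212). Cfb rose with age by 2.34 ± 0.18 in wild type (5.05-fold, adjusted p = 1.55e-06) and by 1.51 ± 0.18 in the mutant (2.86-fold, adjusted p = 0.000147). Of 10 genes of the interferon response 5 were called higher in the mutant at 1 month, among them Gbp2, Gbp3, Bst2 and Oasl2, and 4 without the arrays of female pattern. Their mean level ranged from -1.06 to -0.90 in wild type and from -0.40 to 0.43 in the mutant at 1 month, and from -0.16 to 0.50 and 0.17 to 0.45 at 1 year, and their part in the Cfb values was not tested.

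Cfd encodes factor D, which cleaves bound factor B and is known as a product of fat cells, and its levels varied widely within groups. Cfd levels in wild type were -4.86, -4.03, -3.43 and -3.86 at 1 month and -2.02, -3.08, -3.14 and -0.85 at 1 year. Cfd levels in the mutant were -4.03, -1.92, -0.47 and -2.72 at 1 month and -0.77, 0.26, -1.90 and 0.22 at 1 year. The SD within a group reached 1.49, and the mutant minus wild-type differences of 1.76 ± 0.71 at 1 month and 1.73 ± 0.71 at 1 year did not pass the test (adjusted p = 0.247 and 0.351). Nor did the age differences of 1.77 in wild type and 1.74 in the mutant. Cfp encodes properdin, which stabilises the alternative convertase. Cfp levels in wild type were 1.1, 0.86, 0.91 and 0.82 at 1 month and 1.08, 1.12, 1.31 and 0.79 at 1 year. Cfp levels in the mutant were 0.87, 0.92, 1.21 and 1.06 at 1 month and 1.05, 0.86, 1.19 and 1.22 at 1 year. All 4 groups overlapped, and the 95% intervals of the genotype differences were -0.16 to 0.35 at 1 month and -0.25 to 0.26 at 1 year.

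None of the 6 tested genes of the terminal pathway passed the limma test in any of the 5 comparisons, and at an unadjusted p under 0.05 C8g alone did, in 2 of them. Over all tested genes 12.4% and 6.68% were called with age, 2.67% and 0.867% by genotype and 0.405% for the difference. No call among 6 genes is near those shares, so it does not set this arm apart. Hc encodes C5, from which the pathway starts. Hc levels in wild type were -3.85, -4.09, -4.73 and -4.57 at 1 month and -4.17, -4.45, -4.25 and -4.05 at 1 year. Hc levels in the mutant were -4.96, -4.06, -4.34 and -3.91 at 1 month and -4.20, -4.48, -4.01 and -4.23 at 1 year. The 4 groups overlapped, with genotype differences of -0.01 at 1 month (95% interval -0.49 to 0.47) and -0.00 at 1 year (-0.48 to 0.47).

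C8g encodes the gamma chain of C8 and came closest to the threshold. C8g levels in wild type were -0.62, -1.17, -1.1 and -1.32 at 1 month and -1.90, -1.35, -1.56 and -1.38 at 1 year. C8g levels in the mutant were -1.52, -1.44, -1.67 and -1.36 at 1 month and -1.84, -1.73, -1.81 and -1.46 at 1 year. The wild-type arrays at 1 month lay above all others. The change with age in wild type was -0.49 ± 0.15 (adjusted p = 0.0514), and the mutant minus wild-type difference at 1 month was -0.44 ± 0.15 (adjusted p = 0.173). A dimmer C8g probe gave -0.32 with age in wild type (adjusted p = 0.0864). Under 7 other settings of the processing the age change in wild type passed the test, with values between -0.49 and -0.41, and also without wild-type replicate 4 at 1 month (-0.58, adjusted p = 0.0326).

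C6, C7, C8a and C8b, the other pore components, were dim, with group means between -5.92 and -4.38. Their mutant minus wild-type differences at 1 month ran from -1.0 for C8b (± 0.50, adjusted p = 0.37) to -0.32 for C6. C8b levels at 1 month were -4.39, -4.73, -4.35 and -5.39 in wild type and -5.69, -6.22, -6.87 and -4.08 in the mutant, with mutant replicate 4 apart from the other mutant arrays. Without that array the C8b difference was -1.54 and passed the test (adjusted p = 0.044). A second C7 probe did not pass the filter on dim probes, being well above background on 3 arrays, all of them mutant at 1 year. Its rise with age in the mutant was 1.39 ± 0.55 and was not called (limma, unadjusted p = 0.0235, adjusted p = 0.257).

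Among the 10 regulators Cfi, Clu, Serping1, Cd59a, Cd55, Cr1l and Cd46 were called in at least 1 comparison, a share not counted over all tested genes. With age 5 of 10 were called in wild type and 3 in the mutant, where 12.4% and 6.68% of all tested genes were called. By genotype 0 were called at 1 month and 2 at 1 year, and 1 for the difference. Over all tested genes these shares were 2.67%, 0.867% and 0.405%. Cfi encodes factor I, the protease that inactivates C3b and C4b, and it was high in 1 group. Cfi levels in wild type were -2.23, -1.81, -1.83 and -1.84 at 1 month and -1.76, -1.72, -2.15 and -2.15 at 1 year. Cfi levels in the mutant were -2.15, -1.93, -2.07 and -2.31 at 1 month and 0.04, -0.89, -0.11 and -0.08 at 1 year. The 12 arrays of the other groups lay between -2.31 and -1.72, and the 4 mutant arrays at 1 year lay above all of them, with replicate 2 lowest.

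Cfi was 1.68 ± 0.19 higher in the mutant at 1 year (3.21-fold, adjusted p = 0.000306), and 1.43 and 1.94 higher on the separate slides. At 1 month the difference was -0.19 ± 0.19 (adjusted p = 0.695). The difference between these genotype effects was 1.87 ± 0.26 (adjusted p = 0.00662), the single called difference of this kind among the 32 genes. It was between 1.77 and 2.08 in all 16 fits that left out 1 array, each time called. Without the 3 arrays of female pattern it was 1.88 and lost the call (adjusted p = 0.0705), while the difference at 1 year was 1.58 and kept it (adjusted p = 0.00528). With age Cfi rose by 1.85 ± 0.19 in the mutant (3.62-fold, adjusted p = 3.17e-05), and its change in wild type was -0.01 (95% interval -0.41 to 0.38).

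Clu encodes clusterin, a chaperone that also inhibits the terminal complex. Clu levels in wild type were 6.45, 6.82, 6.76 and 6.73 at 1 month and 6.91, 6.72, 6.91 and 6.88 at 1 year. Clu levels in the mutant were 7.01, 6.96, 6.91 and 7.08 at 1 month and 7.30, 7.12, 7.34 and 7.43 at 1 year. Mutant arrays lay above wild-type arrays at each age. The difference passed the test at 1 year (0.44 ± 0.09, 1.36-fold, adjusted p = 0.0363) and not at 1 month (0.30 ± 0.09, adjusted p = 0.116), and the difference between them was 0.14 ± 0.13 (adjusted p = 0.799). The call at 1 year was lost in 6 of 8 fits that left out 1 array, all but those without mutant replicate 2 or wild-type replicate 4, with values between 0.40 and 0.50 and an adjusted p of up to 0.128. It was also lost without the 3 arrays of female pattern (0.44, adjusted p = 0.172) and with that pattern as a covariate (0.46, adjusted p = 0.052). The same held under normexp background correction (0.42, adjusted p = 0.0565), with the replicate block (0.44, adjusted p = 0.0849) and with the groups of the comparison fitted alone (0.44, adjusted p = 0.0974). The age change of Clu in the mutant was 0.31 ± 0.09 (adjusted p = 0.0579), and it passed the test without mutant replicate 4 at 1 month (0.34, adjusted p = 0.0424) or mutant replicate 2 at 1 year (0.37, adjusted p = 0.041). It also passed under quantile normalization (0.41, adjusted p = 0.0172), in the deposited matrix (0.40, adjusted p = 0.0177) and with array row as a covariate (0.31, adjusted p = 0.0454).

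A list of reactive glia genes was high in the same group in which C4b, Cfi and Clu were higher. The mean level of the 6 genes Gfap, Lcn2, Edn2, Stat3, Osmr and Serpina3n ranged from 1.16 to 1.75 in the mutant at 1 year and from -0.76 to -0.16 over the other 3 groups. Lcn2, Edn2, Stat3 and Osmr, 4 of the 6, were called higher in the mutant at 1 year, also without the arrays of female pattern. The mean of 6 rod genes ranged from 6.09 to 6.31 in the mutant at 1 year and from 6.33 to 6.65 over the other groups. The part of these shifts in the C4b, Cfi and Clu values was not tested.

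Serping1 and Cd59a rose with age by similar amounts in each genotype. Serping1 encodes C1 inhibitor, which inactivates C1r and C1s. Serping1 levels in wild type were 1.27, 1.73, 1.80 and 1.76 at 1 month and 2.50, 2.13, 2.21 and 2.65 at 1 year. Serping1 levels in the mutant were 1.71, 1.5, 1.39 and 2.02 at 1 month and 2.56, 2.33, 2.35 and 2.66 at 1 year. Age separated the arrays in each genotype, with rises of 0.73 ± 0.16 in wild type (1.66-fold, adjusted p = 0.00812) and 0.82 ± 0.16 in the mutant (1.77-fold, adjusted p = 0.00616). A second probe gave 0.85 and 0.92.

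Cd59a encodes a membrane protein that blocks assembly of the terminal pore. Cd59a levels in wild type were 0.95, 1.28, 0.91 and 1.1 at 1 month and 1.53, 1.47, 1.80 and 1.49 at 1 year. Cd59a levels in the mutant were 1.08, 1.1, 1.07 and 1.01 at 1 month and 1.66, 1.48, 1.63 and 1.4 at 1 year. The genotypes overlapped and the ages did not. The rises were 0.51 ± 0.10 in wild type (1.43-fold, adjusted p = 0.00328) and 0.47 ± 0.10 in the mutant (1.39-fold, adjusted p = 0.009), and the genotype differences were 0.01 at 1 month (95% interval -0.20 to 0.22) and -0.03 at 1 year (-0.24 to 0.18).

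Cd55 and Cr1l encode membrane proteins that break up or inactivate C3 convertases, and both were called with age in wild type. Cd55 levels in wild type were -3.16, -2.83, -3.19 and -2.99 at 1 month and -2.04, -2.41, -2.83 and -2.18 at 1 year. Cd55 levels in the mutant were -2.61, -2.26, -2.34 and -2.50 at 1 month and -2.32, -1.97, -2.56 and -2.22 at 1 year. The wild-type arrays at 1 month were the low group. Cd55 rose by 0.68 ± 0.16 in wild type (1.61-fold, adjusted p = 0.0127), and its age change in the mutant was 0.16 (adjusted p = 0.62). The wild-type call was lost with the groups of the comparison fitted alone (0.68, adjusted p = 0.0504). At 1 month all mutant arrays lay above the wild-type arrays, a difference of 0.62 ± 0.16 that missed the threshold (adjusted p = 0.0616). The test of the difference between ages gave -0.52 ± 0.23 (adjusted p = 0.422).

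Cr1l, known as Crry, is the main C3 regulator on mouse cells. Cr1l levels in wild type were -0.10, 0.13, 0.21 and 0.11 at 1 month and 1.17, 0.69, 0.43 and 0.80 at 1 year. Cr1l levels in the mutant were 0.69, 0.44, 0.19 and 0.66 at 1 month and 0.57, 1.33, 0.68 and 0.71 at 1 year. The ages lay apart in wild type and overlapped in the mutant. Cr1l rose by 0.69 ± 0.18 in wild type (1.61-fold, adjusted p = 0.0213), and the age change in the mutant was 0.33 (adjusted p = 0.323), with a difference of -0.36 ± 0.25 (adjusted p = 0.709). The wild-type call was lost without replicate 1 at 1 month (0.63, adjusted p = 0.0645) or replicate 1 at 1 year (0.55, adjusted p = 0.0766).

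Cd46, a cofactor for factor I that mice express mainly in the testis, was near background. Cd46 levels in wild type were -6.41, -5.83, -5.92 and -5.97 at 1 month and -7.21, -6.82, -6.45 and -7.43 at 1 year. Cd46 levels in the mutant were -6.95, -6.98, -5.97 and -6.08 at 1 month and -6.62, -6.33, -6.57 and -6.21 at 1 year. It was well above background on 2 of 4 wild-type arrays at 1 month and on 0 of 4 at 1 year, so its level at 1 year is only a bound. Cd46 was called higher at 1 month than at 1 year in wild type (limma, adjusted p = 0.0248). Each array at 1 year was entered at the faintest signal that counted as above background there, or at the probe's own signal if higher. The difference was then 1.18-fold, which is not a firm lower bound, since the mean at 1 month includes arrays not well above background. The call was lost without wild-type replicate 2, 3 or 4 at 1 month or replicate 1 or 4 at 1 year, with fitted changes from -0.92 to -0.79 and an adjusted p of up to 0.0793. It was also lost under normexp background correction (-0.26, adjusted p = 0.154), under quantile normalization (-0.71, adjusted p = 0.122) and in the deposited matrix (-0.71, adjusted p = 0.123).

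Vtn, C1qbp and C4bp, the other three regulators, were not called in any of the 5 comparisons. Vtn encodes vitronectin, an inhibitor of the terminal complex that photoreceptors are known to make. Vtn levels in wild type were 5.13, 5.27, 5.25 and 5.50 at 1 month and 5.39, 5.48, 5.45 and 5.35 at 1 year. Vtn levels in the mutant were 5.69, 5.59, 5.69 and 5.19 at 1 month and 5.27, 5.11, 5.26 and 5.12 at 1 year. At 1 year the mutant arrays lay below the wild-type arrays, with a difference of -0.23 ± 0.11 (adjusted p = 0.452). The difference at 1 month was 0.25 ± 0.11 (adjusted p = 0.291), and without mutant replicate 4, the lowest of its group, it was 0.37 and passed the test (adjusted p = 0.0312). Without that array the difference between the genotype effects was -0.60 (adjusted p = 0.0383) and the age change in the mutant -0.47 (adjusted p = 0.00455). With all arrays that age change was -0.35 ± 0.11 (adjusted p = 0.0728), and it passed the test at -0.33 under quantile normalization (adjusted p = 0.0454) and in the deposited matrix (adjusted p = 0.0449).

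C1qbp encodes a mitochondrial protein that also binds C1q. C1qbp levels in wild type were 2.78, 3.02, 2.97 and 3.28 at 1 month and 3.16, 3.14, 3.0 and 3.12 at 1 year. C1qbp levels in the mutant were 3.30, 3.16, 3.11 and 3.07 at 1 month and 3.18, 3.18, 3.19 and 3.18 at 1 year. The differences were small, 0.15 between genotypes at 1 month (95% interval -0.05 to 0.35) and 0.08 at 1 year (-0.12 to 0.28). C4bp, the soluble cofactor for factor I, was dim, with arrays between -7.78 and -5.48, and its age difference in the mutant was 1.08 ± 0.45 (adjusted p = 0.186).

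**Figure D3:**
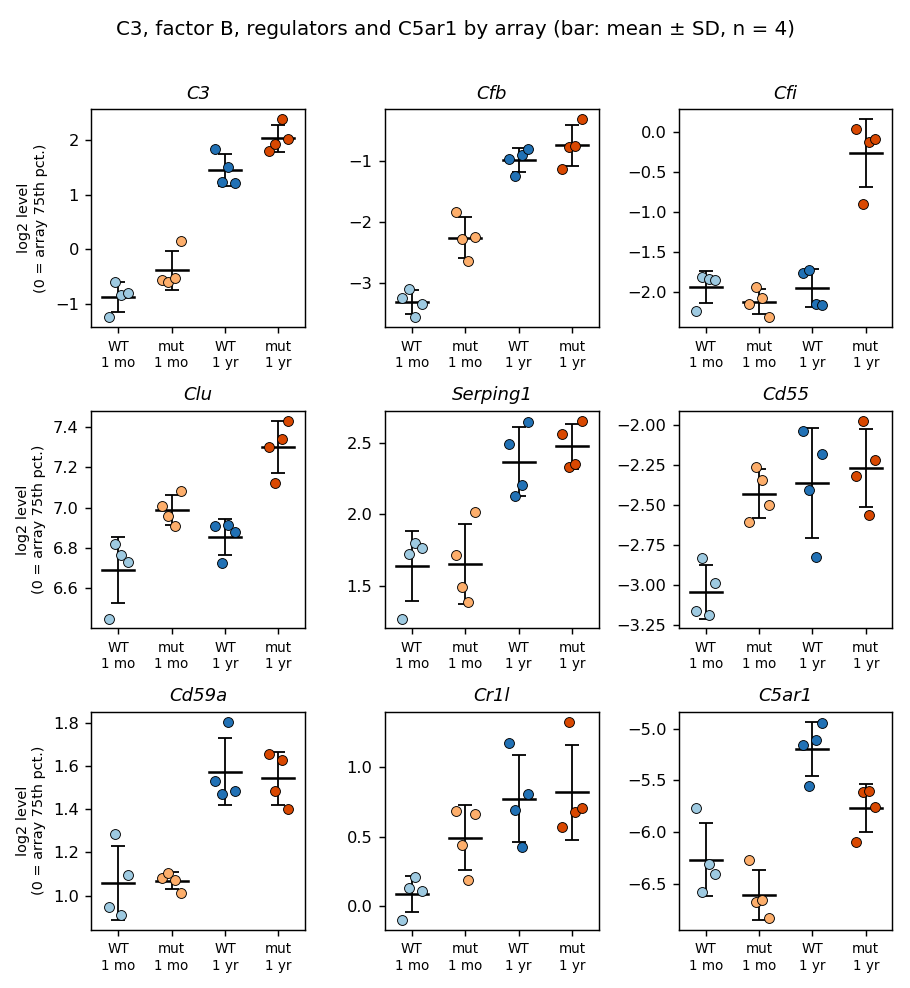
Level of C3, Cfb, 6 regulators and the C5a receptor gene C5ar1 on each array (log2 relative to the array's 75th percentile), with bars for the mean ± SD of the 4 arrays of each group. C3, Cfb, Serping1 and Cd59a separate by age in each genotype, and Cfi is high in the mutant at 1 year alone.

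Of the 3 receptors C5ar1, the gene of the C5a receptor on myeloid cells, was called with age. C5ar1 levels in wild type were -5.77, -6.58, -6.31 and -6.41 at 1 month and -5.16, -5.56, -5.11 and -4.94 at 1 year. C5ar1 levels in the mutant were -6.27, -6.68, -6.66 and -6.84 at 1 month and -6.10, -5.61, -5.60 and -5.76 at 1 year. The probe was well above background on 2 of 4 wild-type and 0 of 4 mutant arrays at 1 month and on all 8 arrays at 1 year. C5ar1 rose by 1.07 ± 0.18 in wild type (2.10-fold, adjusted p = 0.00152), and in the mutant it was also called higher at 1 year (adjusted p = 0.0127). In the processed intensities that mutant rise was at least 1.39-fold, with arrays at 1 month entered at the faintest signal above background or their own if higher. Under normexp background correction neither change was called, with 0.16 in wild type (adjusted p = 0.294) and -0.041 in the mutant (adjusted p = 0.811), the single reversed direction among the called members. At 1 year the mutant arrays lay below the wild-type arrays, with a difference of -0.57 ± 0.18 (adjusted p = 0.203).

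C3ar1, the gene of the C3a receptor, was not called. C3ar1 levels in wild type were -1.28, -1.22, -1.51 and -1.60 at 1 month and -1.82, -1.25, -1.12 and -1.19 at 1 year. C3ar1 levels in the mutant were -1.82, -1.85, -1.76 and -1.61 at 1 month and -1.78, -1.62, -1.53 and -1.45 at 1 year. At 1 month the mutant arrays lay just below the wild-type arrays, with a difference of -0.36 ± 0.14 (adjusted p = 0.237). Vsig4 encodes the C3b and iC3b receptor of resident macrophages. Vsig4 levels in wild type were -4.89, -5.92, -6.39 and -6.44 at 1 month and -5.30, -4.60, -5.64 and -5.04 at 1 year. Vsig4 levels in the mutant were -5.94, -6.32, -5.55 and -5.36 at 1 month and -6.15, -4.91, -5.00 and -4.83 at 1 year. The groups overlapped, and the age differences were 0.76 ± 0.37 in wild type and 0.57 ± 0.37 in the mutant (adjusted p = 0.204 and 0.409). The change in wild type passed the test under quantile normalization (0.92, adjusted p = 0.0451) and in the deposited matrix (0.92, adjusted p = 0.045).

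The 3 arrays of female pattern are all mutant, so leaving them out keeps the wild-type age changes as they were. It leaves fewer mutant arrays at each age, so a lost call does not show that it rested on those arrays. Without those 3 arrays, none of them wild type, the same 15 genes were called in wild type, and in the mutant 7 of 12 stayed called: C1qa, C1qc, C1s, C4b, C3, Cfb and Cfi. Over all tested genes the calls with age in the mutant fell from 1271 to 273, or 1.44%, and those in wild type from 2353 to 1810, or 9.52%. C1qb, C1ra, Serping1, Cd59a and C5ar1 lost their calls in the mutant, with rises of 0.63, 0.88, 0.58, 0.46 and 0.89 and adjusted p of 0.17, 0.108, 0.245, 0.178 and 0.128. With all arrays these rises were 0.78, 1.05, 0.82, 0.47 and 0.84. On each slide separately the called members kept the sign of their change in all 5 comparisons. With the row of the array as a covariate every call among the members was kept.

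Beyond the 34 genes, 36 further genes tied to complement were looked up, among them collectins, ficolins, integrin receptors of C3 fragments and regulators of coagulation, and 33 were tested. At 1 month 2 were higher in the mutant and 1 lower, where 2.67% of all tested genes were called. Itgax, the alpha chain of complement receptor 4, was 1.04 ± 0.20 higher, Calr, the gene of calreticulin, 0.58 ± 0.10 higher, and the difference for C5ar2, the second C5a receptor gene, was -0.32 ± 0.06. At 1 year none of the 33 was called with limma (0 higher and 4 lower at an unadjusted p under 0.05), where 0.867% of all tested genes were called. With age 8 rose and 1 fell in wild type and 5 rose in the mutant, where 12.4% and 6.68% of all tested genes were called. Itgax rose by 5.23 in wild type and 3.73 in the mutant, and Itgb2, its beta chain partner, by 1.62 and 1.18. The scavenger collectin gene Colec12 rose by 1.30 and 0.50, and Pros1, the gene of protein S, by 0.42 and 0.73. Fcna, Thbd and Calr rose and Fcnb fell in wild type, by 1.35, 0.59, 0.47 and -0.50 on the log2 scale. For Itgax and Calr the difference between the genotype effects was called, at -1.51 (adjusted p = 0.0322) and -0.75 (adjusted p = 0.0305). Without the 3 arrays of female pattern both differences lost their calls, at -1.62 (adjusted p = 0.118) and -0.77 (adjusted p = 0.184). So did the 3 calls at 1 month, with 1.17 for Itgax (adjusted p = 0.0539), 0.61 for Calr (adjusted p = 0.0753) and -0.31 for C5ar2 (adjusted p = 0.157), while 8 rises in wild type and 4 in the mutant remained, C1s2, Itgax, Itgb2 and Pros1 in the latter.

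Several lists of cell markers moved with the groups in which complement genes were called. At 1 month the mutant was higher for 4 of 6 RPE genes, 4 of 6 melanin genes, 3 of 6 genes of fibroblasts and matrix and 2 of 6 neutrophil genes, and without the arrays of female pattern for 0, 1, 2 and 0 of them. With age 6 of 11 microglia and macrophage genes rose in wild type and 5 of 11 in the mutant, as did 7 and 2 of 10 interferon-response genes and, in wild type, 4 of 6 neutrophil genes. Of the 6 reactive glia genes 2 rose and 1 fell with age in wild type and 5 rose in the mutant, while of the 6 fibroblast and matrix genes 2 rose in wild type and 4 fell in the mutant. Over all tested genes 1.98% were called higher in the mutant at 1 month. With age 7.28% were called higher and 5.09% lower in wild type, and 3.76% higher and 2.92% lower in the mutant. The melanin list ranged from 2.30 to 2.99 in wild type and 3.07 to 3.70 in the mutant at 1 month. At 1 year it ranged from 3.29 to 3.78 and 2.69 to 3.19, with no gene called between genotypes. With age Tyrp1 and Slc45a2 rose in wild type, and Tyr and Pmel fell in the mutant. For Tyrp1 and Slc45a2 the difference between the genotype effects was called lower. Without the arrays of female pattern neither those falls nor that difference was called. The fibroblast and matrix list ranged from 2.14 to 2.87 in wild type and 3.79 to 4.02 in the mutant at 1 month, and from 2.68 to 3.61 and 2.43 to 3.42 at 1 year. The neutrophil list ranged from -4.46 to -3.88 in wild type and -3.49 to -1.28 in the mutant at 1 month, and from -2.76 to -1.73 and -2.96 to -2.06 at 1 year. The list of lens genes lay between 5.16 and 5.78 at 1 month and between -3.20 and 0.98 at 1 year in wild type (3 of 5 genes called lower at 1 year), and it spread from 1.78 to 6.84 and from -1.41 to 4.86 in the mutant. The mean of 4 red cell genes ranged from -1.58 to 0.30 in wild type and 0.66 to 4.96 in the mutant at 1 month, with no gene called. Of 7 hepatocyte genes Alb, Apoa1 and Fgb did not pass the filter on dim probes, nor did the neutrophil gene Ngp. The part of the other shifts in the complement values was not tested.

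**Figure D4:**
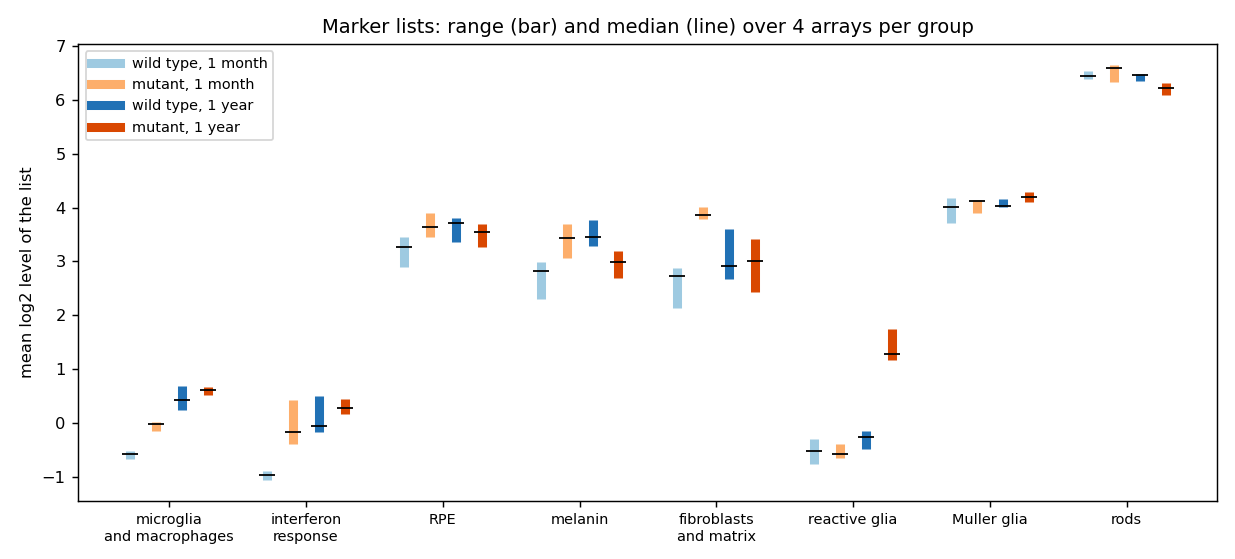
Mean log2 level of 8 marker lists by group (relative to each array's 75th percentile), with bars from the lowest to the highest of 4 arrays and a line at the median. At 1 month all 4 mutant arrays lie above all 4 wild-type arrays for microglia, interferon-response, RPE, melanin and fibroblast genes, and at 1 year for reactive glia genes. At 1 year all 4 mutant arrays lie below all 4 wild-type arrays for melanin and rod genes.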

How the data were processed

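Deposited for each array was the Cy3 intensity of its spots, from which Agilent Feature Extraction (11.0.1.1 in the submitters' processing notes) had removed background. A log2 matrix deposited by the authors, which by its values is quantile normalized between arrays, served as an alternative. The software behind it is not given in the sources used here. No depth applies to arrays, and their number, 4 per group, limits the precision.

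Levels were log2 of the processed intensity minus the array's 75th percentile, with spots marked as outliers left out and spots of a probe averaged. Probes were named through RefSeq (GRCm38.p6) by accession, kept when well above background on at least 4 of 16 arrays, and the brightest probe represented a gene. One model with 4 group means was fitted with limma 3.58.1 (R 4.3.3) to 19022 genes, with 5 two-sided contrasts, and was tested on simulated data. The members and lists were chosen with earlier results of these data known. Per-array values are given for members called in any contrast and for 1 or 2 uncalled members of each arm with the highest mean level; the rest are given by range, and of the further complement list called genes alone are named. Promoters of C1qa, C2, C4b, Cfb, Cfi, Serping1, Masp1 and Clu were not at hand and were not used here. Lists and further complement genes were also refitted without the arrays of female pattern. Replicate numbers were not used as pairs: 5 of 24 same-numbered pairs of arrays had deviations correlated above 0.1. The alternatives were another background correction and normalization, the deposited matrix, other filters, all probes, blocks for replicate number and slide, array row, the female pattern, fewer groups and leaving out each array.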

Additional observations from a re-analysis of the deposited data

Results flagged for a closer look

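Among 128 sets of 4 arrays, 1 for each of the 32 genes in each group, 6 had an array far from its group relative to the group's range, and chance alone gives about 1 in 20 such sets. C3 in mutant replicate 4 at 1 month was 0.16, while the others lay between -0.60 and -0.53. C4b on the same array was 2.07 and the others were between 1.38 and 1.49. Cfi in mutant replicate 2 at 1 year was -0.89, with the others between -0.11 and 0.04, and Cfi in wild-type replicate 1 at 1 month was -2.23, with the others between -1.84 and -1.81. Serping1 on that wild-type array was 1.27, and the others were between 1.73 and 1.80. Vsig4 in mutant replicate 1 at 1 year, an array of female pattern, was -6.15, with the others between -5.00 and -4.83. The genotype effect on Cfi differed between ages, by 1.87 on the log2 scale (limma, adjusted p = 0.00662).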

How the results depend on the processing

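The count of members called moved with the arrays of female pattern. Without those 3 arrays it was 1 at 1 month in place of 3, 0 for the difference between genotype effects in place of 1, where 12 of all tested genes were called in place of 77 and the Cfi difference was 1.88 (limma, adjusted p = 0.0705; 10 members at an unadjusted p under 0.05), and 7 with age in the mutant in place of 12, where all tested genes had 273 calls in place of 1271. With the pattern as a covariate the count at 1 month was also 1. Leaving out 1 array at a time gave 1 to 5 members at 1 month, 2 to 3 at 1 year, 1 to 3 for the difference, 13 to 15 with age in wild type and 12 to 14 in the mutant. The lowest count at 1 month came without mutant replicate 1 or wild-type replicate 1 or 3, and the highest without mutant replicate 4, which added C8b and Vtn. Over all tested genes the 1-month comparison had 508 calls, 133 without the arrays of female pattern, 245 with the covariate, 310 with the replicate block, 156 with its 2 groups alone, and 225 to 924 with 1 array left out. The 1-year comparison had 165, and 79, 123, 96, 86 and 82 to 311 under the same settings. With 1 array left out the age comparisons had 1517 to 2198 calls over all genes in wild type (2353 with all arrays) and 785 to 1919 in the mutant. For the difference between genotype effects the count over all genes was then 33 to 194 (77 with all arrays). The replicate block gave 2 members at 1 month, 2 at 1 year, 1 for the difference and 15 and 12 with age. Over all tested genes it gave 43 calls for the difference and, with age, 1891 in wild type and 947 in the mutant. With this block C1qc (adjusted p = 0.0515) and Clu (adjusted p = 0.0849) lost their calls. Of 16 arrays, 2 correlated best with their own number. C5ar1 with age in the mutant reversed to -0.041 under normexp, which used the median spot signal, and the cause was not tested. Called under every setting and every array left out were 1 of 3 members at 1 month (Cfb), 2 of 3 at 1 year (C4b and Cfi), 11 of 15 with age in wild type and 7 of 12 in the mutant. For the difference between genotype effects it was 0 of 1, since Cfi lost that call without the arrays of female pattern. Dim probes (Cd46, C5ar1, C4bp, C8a, C8b, Vsig4) are limited by signal over background.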

Other observations

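Several members lie next to each other in the genome, and the neighbours were compared by their age changes. C1qb, C1qc and C1qa follow each other on chromosome 4 with 0 protein-coding genes between them, and they rose by 1.25, 1.78 and 1.42 in wild type and by 0.78, 1.20 and 0.99 in the mutant. C1rl, C1ra and C1s follow each other on chromosome 6, where C1ra and C1s rose in each genotype and C1rl, at -0.25 and -0.16, was not called. Cfb and C2 are adjacent on chromosome 17, with C4b 5 protein-coding genes away. All 3 rose in wild type (2.34, 1.31 and 1.38), while at 1 year the mutant minus wild-type differences were 0.24, -0.39 and 1.26, of which C4b alone was called. Cr1l and Cd46 are adjacent on chromosome 1, and in wild type the fitted age changes were 0.69 for Cr1l and -0.94 for the dim Cd46 probe.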
